A study of Mus musculus with 6 samples.

Results

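The BCL2 family genes that set the threshold for cell death at the mitochondrion were followed here in blood progenitors of NHD13 transgenic mice and their wild type littermates. The family members were taken as 10 named genes, 4 that protect cells (Bcl2, Bcl2l1, Bcl2l2 and Mcl1) and 6 that promote death (Bax, Bak1, Bcl2l11, Bbc3, Pmaip1 and Bid). Every bead array probe whose platform annotation names one of them was read, which gave 32 of 45281 probes and 9 of 19057 annotated genes. Bax was not analysed here, as the annotation used here pairs no probe with that symbol.

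The cells were lineage-negative, Kit-positive (LK) marrow cells, the sorted fraction that holds blood stem and progenitor cells. The tested mice carried NHD13, the usual name of a transgene for the NUP98-HOXD13 fusion of human myelodysplastic syndrome and leukaemia. The controls were wild type mice of the same litters, and both genotypes were 3 months old. Each genotype had 3 arrays, and each array held RNA of marrow pooled from 3 mice, so differences between single mice cannot be seen. NHD13 mice are usually described as expressing the fusion in blood cells under Vav1 regulatory elements, which the labels used here do not state. Nothing in the labels gives the share of stem cells or of each kind of progenitor in a pool.

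Proteins of the family bind each other at the outer mitochondrial membrane. BAX and BAK open that membrane and release cytochrome c, the survival proteins BCL2, BCL-XL, BCL-W and MCL1 hold them back, and the BH3-only proteins BIM, PUMA, NOXA and BID relieve that restraint or activate BAX and BAK directly. In mouse blood formation MCL1 is required by stem cells, BCL-XL by maturing red cells and megakaryocytes, and BCL2 by mature lymphocytes. Much of this control acts on proteins, so an mRNA level is only one part of it.

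Promoters from RefSeq (GRCm38.p6, 250 bases before and 50 bases after a transcript start) are shown for Bcl2 and Mcl1. Bcl2 was the member with the largest difference between genotypes. Mcl1 is a survival gene whose values overlapped between genotypes, and both windows hold the 2 motifs marked here. Capitals mark the GC box GGGCGG and the core TGACG of the cAMP response element, each searched on both strands. The Bcl2 window is chr1:106714241-106714540 on the minus strand, and the Mcl1 window is chr3:95658471-95658770 on the plus strand.
Bcl2: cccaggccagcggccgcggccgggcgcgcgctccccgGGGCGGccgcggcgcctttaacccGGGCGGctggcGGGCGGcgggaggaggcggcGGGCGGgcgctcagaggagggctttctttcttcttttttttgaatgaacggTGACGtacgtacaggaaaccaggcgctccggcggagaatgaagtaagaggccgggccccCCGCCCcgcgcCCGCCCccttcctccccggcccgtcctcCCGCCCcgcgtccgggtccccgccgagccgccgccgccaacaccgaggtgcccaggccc
Mcl1: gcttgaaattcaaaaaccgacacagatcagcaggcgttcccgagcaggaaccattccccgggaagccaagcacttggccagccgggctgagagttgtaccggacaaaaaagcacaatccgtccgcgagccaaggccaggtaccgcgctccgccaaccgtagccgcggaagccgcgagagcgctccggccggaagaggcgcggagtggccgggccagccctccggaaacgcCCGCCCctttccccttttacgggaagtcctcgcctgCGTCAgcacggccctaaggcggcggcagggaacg
The Bcl2 window held 7 GC boxes and 1 such core, and the Mcl1 window held 1 of each. The GC box was found in 35.7% of all 32851 promoter windows and the core in 20.8%. Stretches of 60 bases are shown for Bcl2l11 and Bbc3, BH3-only genes known as targets of FOXO factors in mouse and human cells, because theirs were the member windows that held the forkhead core TGTTTAC on either strand, marked alone in capitals. They lie at chr2:128125788-128125847 and chr7:16310067-16310126, both on the plus strand.
Bcl2l11: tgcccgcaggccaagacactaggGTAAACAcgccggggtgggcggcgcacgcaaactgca
Bbc3: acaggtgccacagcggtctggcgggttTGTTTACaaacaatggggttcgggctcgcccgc
The forkhead core was found in 3.65% of all windows, and in 2 of the 14 windows of the 9 members with a listed promoter. None of the marked matches overlapped another. A total of 10 motifs was searched, and the 3 marked here were picked after their matches were seen, so their presence is only shown. The matches describe the letters and no binding was measured.

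Intensities were background-corrected, quantile-normalized and put on a log2 scale, and each value below is such a normalized log2 value unless stated otherwise. A probe counted as detected on an array when its deposited detection p-value was under 0.05. Arrays detected between 15983 and 16836 probes. The limma test took the 16518 probes that at least 3 arrays detected, and p-values were adjusted over all of them. The first principal component held 59.1% of the variance, and NHD13 replicate 2 lay farthest from the other arrays on it. Kit, the receptor of the sort, was bright in both genotypes, at 12.60 ± 0.26 in NHD13 and 12.82 ± 0.18 in wild type pools (SD, n = 3 each), while Cd34 measured 5.79, 5.05 and 7.30 in NHD13 pools, against 7.87, 7.63 and 7.82 in wild type pools (adjusted p = 0.456). Flt3 and Cd48 were below background on every array. Of 9000 tested genes, 18 (0.200%) were called higher and 32 (0.356%) lower in NHD13 cells, a share of 36% higher. That share was 48.1% without background correction, 75% (12 of 16) without NHD13 replicate 1 and 75% (3 of 4) without wild type replicate 3.

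None of the 15 tested family probes passed the adjusted threshold, where 0.406% of all tested probes did. One gene stood apart in size: Bcl2 lay 3.40-fold below wild type in NHD13 cells by its brightest probe (a difference of -1.76 ± 0.37 in log2, SE, n = 3 against 3, limma adjusted p = 0.196). By their brightest tested probes, the other 8 genes differed by between -0.23 and 0.55, and their genotypes overlapped. Within limma, 4 of the 15 probes had an unadjusted p under 0.05, where 7.68% of all tested probes did, and all 4 read Bcl2. They share gene, RNA and arrays and are therefore not 4 separate observations.

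Bcl2, the founding survival gene of the family, spans chr1:106538176-106714290 of GRCm38.p6 on the minus strand. Of its 9 probes, 4 were detected on all 6 arrays. The brightest, ILMN_1249366, measured 7.67, 7.01 and 8.55 in NHD13 replicates 1, 2 and 3, against 9.55, 9.41 and 9.57 in wild type replicates 1, 2 and 3. The highest NHD13 pool was thus below the lowest wild type pool, where 5.13% of all tested probes separated in this direction. The NHD13 pools were spread over a wider range: their SD was 0.77, against 0.09 in wild type. Deposited mean intensities of this probe were 317.8, 230.7 and 497.6 on the NHD13 arrays, against 1059.4, 791.1 and 810.02 on the wild type arrays. The standard errors over its 37 to 51 beads were between 11.96 and 25.2 units in NHD13 and between 38.3 and 49.1 units in wild type. They describe error within an array and not the variation between pools. The 95% confidence interval of the log2 difference, not adjusted for the number of probes, ran from -2.63 to -0.90.

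The other 3 detected Bcl2 probes showed the same separation. ILMN_2706514 measured 6.74, 5.83 and 8.06 in NHD13 pools, against 8.51, 8.53 and 8.70 in wild type pools (difference -1.71 ± 0.51, SE, adjusted p = 0.455). ILMN_1249021 measured 6.36, 5.71 and 7.05 in NHD13 pools, against 8.14, 7.69 and 7.91 in wild type pools (difference -1.54 ± 0.34, SE, adjusted p = 0.222). For all of these probes NHD13 replicate 2 was the lowest array and NHD13 replicate 3 the highest of its genotype. ILMN_2682162, which the annotation assigns to the other RefSeq transcript of the gene, measured 6.39, 5.85 and 7.0 in NHD13 pools, against 7.84, 7.52 and 8.29 in wild type pools. Its difference was -1.47 ± 0.33 (SE, adjusted p = 0.236), so probes of both annotated transcripts pointed the same way. With the replicate number as a block this last probe passed (adjusted p = 0.036), and the brightest probe did not (adjusted p = 0.114). Across the 6 arrays the 4 probes correlated with each other at Pearson's r between 0.951 and 0.993, as a description of probes that share the same RNA.

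**Figure D1:**
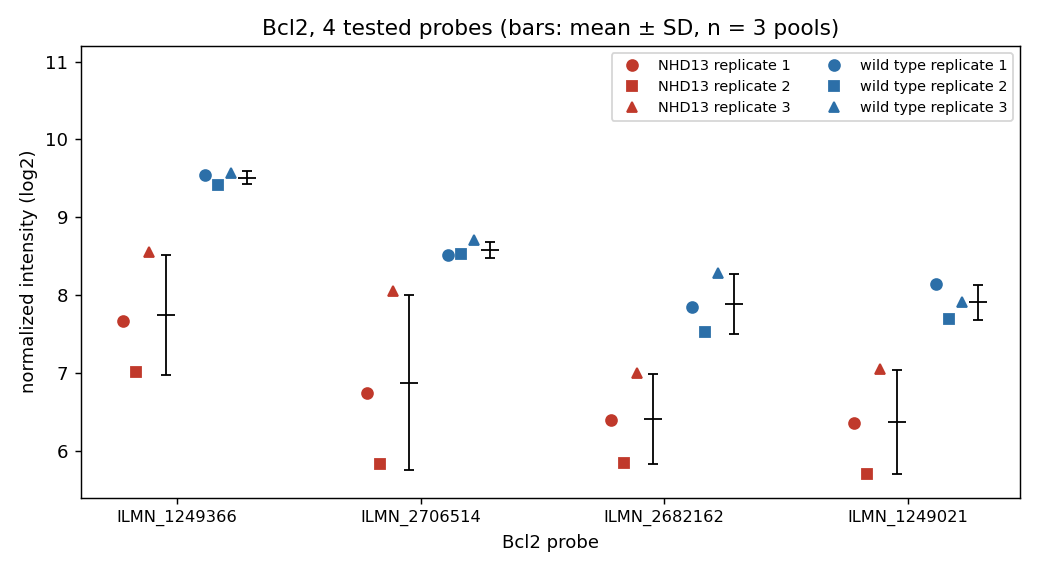
Normalized log2 intensity (y axis) of the 4 tested Bcl2 probes (x axis), with 3 NHD13 pools in red left of 3 wild type pools in blue, marker shape giving the replicate number and bars the mean ± SD. In every probe the 3 NHD13 pools sit below the 3 wild type pools, with NHD13 replicate 2 lowest.

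Groups that do not overlap were not rare: 12.0% of all tested probes and 12.5% of tested genes had them, and 5.83% of genes had all NHD13 arrays below all wild type arrays. In size, Bcl2 was nearer the edge, since 0.567% of tested genes had a log2 difference at or below its own. Its values depended on single pools. Without NHD13 replicate 3, the NHD13 pool with the most Bcl2 signal, the brightest probe passed (difference -2.17, adjusted p = 0.027). Without NHD13 replicate 2, the lowest pool, the difference was -1.40 (adjusted p = 0.277), and without any other array the adjusted p lay between 0.340 and 0.667. Between arrays of the same number the brightest probe differed by -1.87, -2.40 and -1.02 for numbers 1, 2 and 3. With array weights, which gave NHD13 replicate 1 a weight of 5.02 and NHD13 replicates 2 and 3 weights of 0.55 and 0.35, all 4 Bcl2 probes passed (adjusted p between 0.0089 and 0.026).

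The other survival genes lay close to 0. Mcl1, whose short-lived protein is needed by blood stem cells, was read by 1 probe and measured 10.92, 10.58 and 10.92 in NHD13 pools, against 10.87, 10.66 and 10.76 in wild type pools. The genotypes overlapped, with NHD13 replicate 2 the lowest array. The log2 difference was 0.04 ± 0.16 (SE, adjusted p = 0.951), with a 95% interval from -0.35 to 0.43. Bcl2l1, which encodes BCL-XL, had 4 probes of which 1 was tested, ILMN_2698430, and it measured 5.65, 5.81 and 5.84 in NHD13 pools, against 5.98, 5.64 and 5.66 in wild type pools. These values were just above the detection floors of 5.39 to 5.49, so a change in Bcl2l1 could be seen only in part. Its 95% interval ran from -0.38 to 0.39 (adjusted p = 0.997).

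Bcl2l2, which encodes BCL-W, had 2 tested probes among 5. The brighter, ILMN_2636443, measured 9.01, 8.93 and 9.26 in NHD13 pools, against 9.20, 9.10 and 9.37 in wild type pools (difference -0.16 ± 0.16, SE, adjusted p = 0.809). The dimmer, ILMN_2936517, measured 7.82, 7.88 and 7.81 in NHD13 pools, against 7.69, 7.99 and 7.68 in wild type pools (difference 0.05, adjusted p = 0.935). The genotypes overlapped in both probes, whose differences had opposite signs. The unadjusted 95% intervals of these 2 tested probes together ran from -0.55 to 0.42. A change of the size measured for Bcl2 lies outside them.

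Among the pro-apoptotic genes, Bak1, the membrane-opening effector measured here, had the largest difference without passing. Its probe measured 6.37, 6.49 and 6.55 in NHD13 pools, against 5.74, 6.49 and 5.53 in wild type pools. Wild type replicate 2 reached the NHD13 level, and the other wild type pools were lower. The difference was 0.55 ± 0.26 (SE, adjusted p = 0.670), with a 95% interval from -0.07 to 1.17. Over the alternatives it lay between 0.19 and 0.84 and passed in none of 16.

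Bcl2l11, which encodes the BH3-only protein BIM that removes blood cells deprived of cytokines, had 2 tested probes among 4. The brighter, ILMN_3157568, measured 9.14, 8.86 and 8.96 in NHD13 pools, against 8.52, 8.82 and 8.99 in wild type pools (difference 0.21 ± 0.18, SE, adjusted p = 0.778). The dimmer, ILMN_2590638, measured 7.15, 7.05 and 7.22 in NHD13 pools, against 6.68, 7.01 and 7.22 in wild type pools (difference 0.17, adjusted p = 0.812). In both probes wild type replicate 1 was the lowest array and the genotypes overlapped. Bbc3, which encodes PUMA and is a target of p53, measured 7.33, 7.28 and 8.10 in NHD13 pools, against 7.33, 7.76 and 7.40 in wild type pools by its brighter probe, ILMN_2920736. One array, NHD13 replicate 3, was high there, and the difference was 0.07 ± 0.26 (SE, adjusted p = 0.943). The dimmer tested Bbc3 probe, ILMN_2690620, measured 5.53, 5.76 and 5.65 in NHD13 pools, against 6.09, 5.89 and 5.70 in wild type pools (difference -0.25, adjusted p = 0.726), opposite in sign to the brighter one.

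Bid, whose protein is cut by caspase 8 and carries death receptor signals to the mitochondrion, measured 10.52, 10.41 and 10.95 in NHD13 pools, against 10.91, 10.60 and 11.04 in wild type pools by its bright probe, ILMN_3161878. Each NHD13 array was below the wild type array of its number, but the genotypes overlapped (difference -0.23 ± 0.21, SE, adjusted p = 0.789). Pmaip1, which encodes NOXA, the partner that draws MCL1 into degradation, was near background. Its tested probe, ILMN_2670625, measured 5.18, 5.83 and 5.77 in NHD13 pools, against 5.67, 5.35 and 5.85 in wild type pools, and was detected on 2 arrays of each genotype. Its difference was -0.03, with a 95% interval from -0.59 to 0.53 (adjusted p = 0.977).

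**Figure D2:**
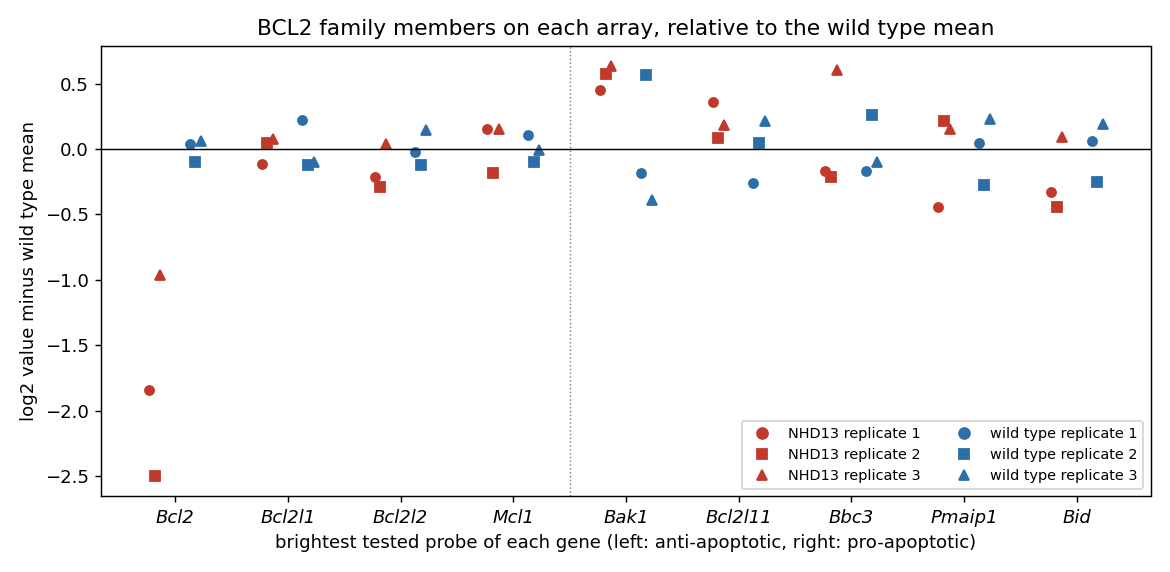
Log2 value minus the wild type mean (y axis) for the brightest tested probe of each of 9 family genes (x axis), NHD13 pools in red left of wild type pools in blue, with marker shape giving the replicate number. The NHD13 pools of Bcl2 are apart from the wild type pools, and those of the other 8 genes overlap them.

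Set side by side, the 4 tested anti-apoptotic genes had a median log2 difference of -0.08, with 2 above 0 and 2 below, and the 5 tested pro-apoptotic genes had a median of 0.07, with 3 above 0 and 2 below. The median over all 9000 tested genes was 0.03, with 54.1% above 0. The anti-apoptotic median was 0.0028 over the 3 genes other than Bcl2. Within each side no gene was called, where 0.556% of all tested genes were. The pro-apoptotic median was -0.12 without NHD13 replicate 3 and 0.30 without both arrays numbered 2. Probe levels of different genes were not set against each other, because probes differ in how brightly they report the same amount of RNA.

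**Figure D3:**
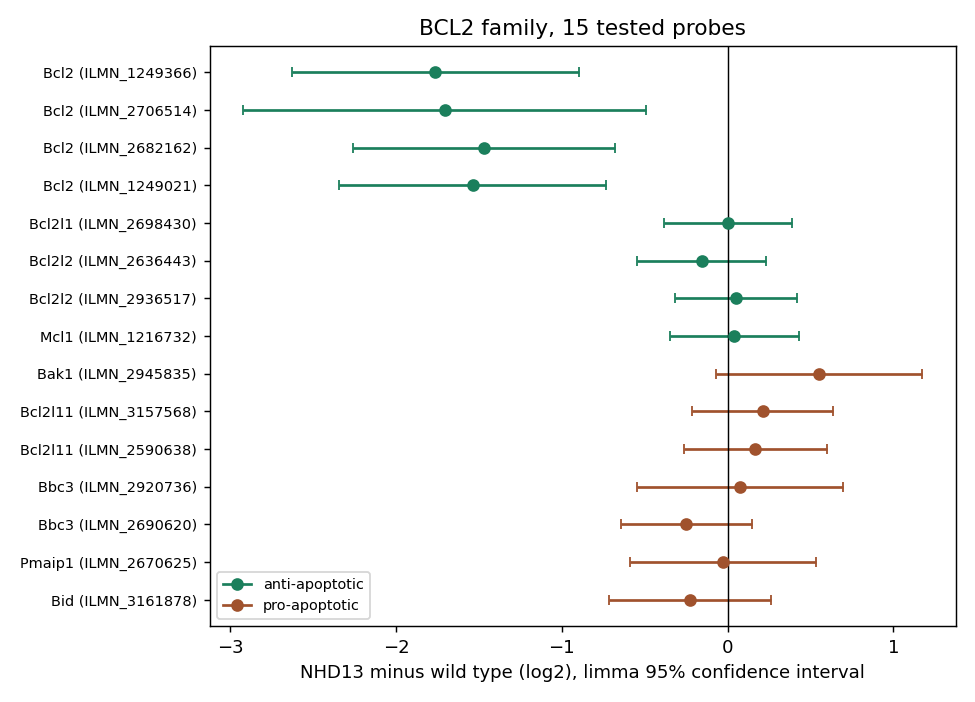
Log2 difference, NHD13 minus wild type (x axis), of the 15 tested probes (y axis) with limma's unadjusted 95% confidence interval, anti-apoptotic genes in green above pro-apoptotic genes in brown. The 4 intervals of Bcl2 lie below 0 and the other 11 include 0.

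The remaining 17 family probes were not tested. Of these, 11 were below background on all 6 arrays, among them 4 of Bcl2, and 6 were detected on 1 or 2 arrays. The Bcl2 probe ILMN_1215796 was detected on wild type replicates 2 and 3 (detection p of 0.0064 and 0.016) and on no NHD13 array. The Bcl2l2 probe ILMN_2601572 was likewise detected on wild type replicates 1 and 3 and on no NHD13 array. A Bcl2l1 probe went the other way: ILMN_1255430 was detected on NHD13 replicates 2 and 3 and on no wild type array. The last 3 probes detected on some array, of Bcl2l2, Bcl2l11 and Bid, were each detected on wild type replicate 2 alone. Some untested probes, all near background, did not overlap between genotypes. NHD13 was lower for Bcl2l2 ILMN_2601572 (difference -0.75), Bid ILMN_2757287 (-0.45) and Bcl2 ILMN_2597567 (-0.30). NHD13 was higher for Bcl2l1 ILMN_1255430 (0.51) and ILMN_2742557 (0.34). Among tested probes 12.0% did not overlap. That share does not cover probes outside the test, for which none was taken, so these separations have no like share beside them.

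Beyond these members, 11 of 20 other genes of a wider family list were tested and 0 were called in either direction by limma, with a median difference of 0.09. That list also holds genes of proteins that bind family members, such as Bnip2 and Becn1. Of all tested genes, 0.556% were called and 7.67% had an unadjusted p under 0.05. Here Bcl2l15, also known as Bfk, was the one with such a p. It measured 7.36, 6.90 and 6.88 in NHD13 pools, against 6.11, 6.30 and 5.96 in wild type pools. All 3 NHD13 pools were higher, as in 6.71% of tested genes, by 0.92 ± 0.19 (SE, adjusted p = 0.202). Bnip2 measured -0.29 and Bnip1 0.25. Bcl2a1c, Bcl2l10, Bok, Bmf, Hrk and Bnip3 were below background on all arrays. Probes of the Bcl2a1 copies, which are near-identical genes, may cross-read each other.

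The machinery downstream of the mitochondrion was not called either. Of 17 genes for the apoptosome, the caspases and proteins released with cytochrome c, 13 were tested, 10 lay above 0, and the median was 0.08. Casp9, the initiator caspase of this pathway, averaged 9.47 ± 0.09 across NHD13 pools and 9.17 ± 0.21 across wild type pools (SD, n = 3, limma adjusted p = 0.697), Htra2 differed by 0.35 and Dffa, the inhibitor of the caspase-activated DNase, by 0.25. Of 6 tested caspase inhibitors, with a median of -0.06, Birc2 differed by 0.21, Naip2 by -0.32 and Cflar, the decoy of caspase 8, by -0.21. Of 5 tested death receptor and adaptor genes, with a median of 0.06, Tnfrsf21 differed by -0.70, Tnfrsf10b by 0.27 and Tradd by 0.12. These 3 lists held 0 genes called by limma and 0 with an unadjusted p under 0.05, where 0.556% and 7.67% of all tested genes were. With so low a share called, 0 calls in lists this short say little about them.

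Regulators of the family were tested for 16 of 20 genes, with a median of 0.06. Of these, 0 were called by limma and 0 had an unadjusted p under 0.05, where 0.556% and 7.67% of all tested genes did. Trp53, the gene of p53, was not measured, as the annotation pairs no probe with it. Trp73, Stat5b and Akt1 were below background on every array. Ddit3, the stress factor CHOP that represses Bcl2 and induces Bcl2l11, differed by 0.43 ± 0.20 (SE, adjusted p = 0.671), Bag6 by 0.27 and Bag3 by 0.24. Among the factors linked to the motifs above, Foxo3 averaged 6.79 ± 0.33 across NHD13 pools and 6.81 ± 0.03 across wild type pools (SD, n = 3), and Foxo1 differed by -0.38 (adjusted p = 0.727). Both were chosen for the motifs after their values were seen.

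Of the marker lists, only that of lymphoid priming separated the genotypes in the summed level of all its markers, as Bcl2 did. Lower levels in NHD13 were not particular to it. The stem cell sum overlapped because it includes Hoxb5, at 8.01 or above in NHD13 and 5.06 or below in wild type. Of the 9 tested stem cell markers, 5 had all NHD13 pools below all wild type pools. The summed linear intensity of 10 lymphoid priming markers was 1384.9, 966.0 and 2820.1 in NHD13 replicates 1, 2 and 3, against 3750.8, 3639.4 and 3914.6 in wild type replicates 1, 2 and 3. The sum rests mostly on Satb1 and Sox4, which averaged 11.03 and 10.16 in log2 in wild type. Dntt, the next brightest tested marker there, averaged 7.31. The 6 arrays took the same order in this sum as in the brightest Bcl2 probe. Within each genotype that order was not particular to this list. The sums of granulocyte and monocyte, mast cell and basophil, mature B cell, and stromal and endothelial markers also followed it there. All 5 tested lymphoid priming markers lay below 0, with a median of -1.13. Of them 4 had an unadjusted p under 0.05 and 1 was called, where 7.67% and 0.556% of all tested genes were. Among these 4, Dntt and Il7r were each detected on 0 NHD13 and 3 wild type arrays. They passed the detection filter through wild type alone, which favoured a direction below 0. Dntt, an enzyme that adds bases at receptor gene joints, was called lower (detected on 0 NHD13 and 3 wild type arrays, adjusted p = 0.031), while Satb1 differed by -1.99 (adjusted p = 0.541) and Sox4 by -0.80. Flt3, Rag2, Ccr9 and Lax1 were below background on every array. In pooled RNA, fewer cells of a type and less RNA per cell cannot be told apart, and the part of these markers in the Bcl2 result was not tested.

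**Figure D4:**
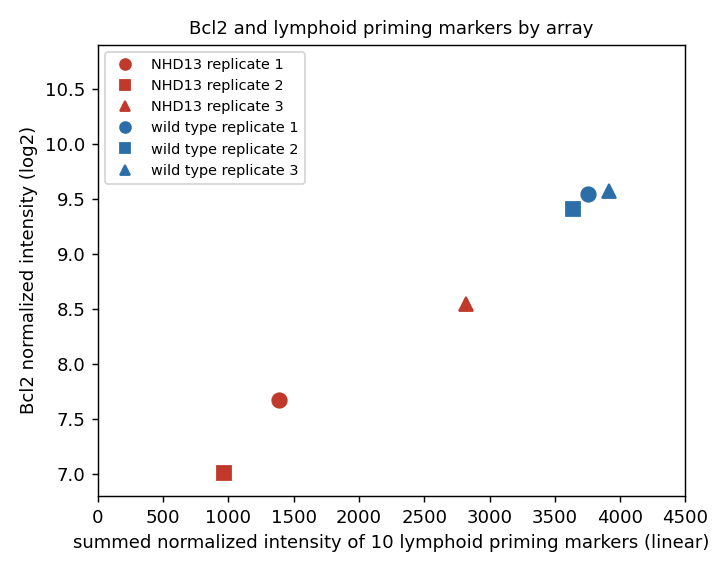
Normalized log2 intensity of the brightest Bcl2 probe (y axis) against the summed normalized linear intensity of 10 lymphoid priming markers (x axis) on the 6 arrays, NHD13 in red and wild type in blue, with marker shape giving the replicate number. NHD13 replicate 2 is lowest on both axes at 7.01 and 966.0, and wild type replicate 3 is highest at 9.57 and 3914.6. The sum rests mostly on Satb1 and Sox4.

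Other marker lists overlapped between genotypes in their sums. Beside the counts below, 0.556% of all tested genes were called and 7.67% had an unadjusted p under 0.05. The 11 granulocyte and monocyte markers summed to between 21940 and 187926 in NHD13 and between 100341 and 192643 in wild type, with all 11 tested members below 0 (median -1.04), 0 called by limma, 0 at an unadjusted p under 0.05, and NHD13 replicate 2 lowest. The 10 mast cell and basophil markers summed to between 738.4 and 9995.9 in NHD13 and between 3603.1 and 15578 in wild type, with all 7 tested members below 0 (median -1.48), 3 of them at an unadjusted p under 0.05 and 0 called by limma. Of these 3, Il4 and Fcer1a were detected on 0 NHD13 and 3 wild type arrays, so they passed the detection filter through wild type alone. The 11 erythroid markers summed to between 60592 and 88241 in NHD13 and between 57074 and 68604 in wild type, with all 11 above 0 (median 0.44), 0 called by limma and 0 at an unadjusted p under 0.05. The 9 tested stem cell markers had a median of -1.34, with 4 above 0 and 5 below, 7 at an unadjusted p under 0.05, and all 3 NHD13 pools below all wild type pools in 5. Of these markers 1 was called higher, Hoxb5 (detected on 3 NHD13 and 0 wild type arrays, limma adjusted p = 0.0036), and 2 lower. Those were Robo4 (detected on 0 NHD13 and 3 wild type arrays, adjusted p = 0.013) and Nkx2-3 (5.36 ± 0.38 in NHD13 and 7.74 ± 0.48 in wild type, SD, n = 3, adjusted p = 0.035). Hoxb5, Robo4 and Emcn were each detected in a single genotype. The filter thus admitted them through the genotype where they were higher, which favoured their direction. The sums of the 11 stem cell markers with a probe ran from 631.5 to 906.3 in NHD13 and from 824.1 to 1026.8 in wild type. They include Hoxb5, which differed in the other direction from the 5, and their overlap rests on that gene. Procr and Fgd5 were below background on every array, as were Gzmb and Tpsb2 of the mast cell and basophil list. Mature B cell markers (4 of 8 tested, all below 0, median -0.40) summed to between 322.5 and 784.4 in NHD13 and between 482.2 and 920.3 in wild type, and Pax5 and Cd22 were below background on every array. T and NK cell markers (4 of 11 tested, all below 0, median -0.34) summed to between 4607.6 and 15285 in NHD13 and between 8994.01 and 14595 in wild type, with Cd3d, Cd4, Cd8a and Klrb1c below background on every array. Stromal and endothelial markers (2 of 10 tested, both below 0, median -0.75) summed to between 400.3 and 657.0 in NHD13 and between 574.6 and 807.1 in wild type, with Cdh5, Col1a1, Col3a1, Sparc and Pdgfra below background on every array. None of these last 3 lists held a called gene in limma, and each was at 0 genes with an unadjusted p under 0.05. The part of all these lists in the Bcl2 result was not tested.

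Among 8736 named genes, those whose levels ran most like Bcl2 over the 6 arrays were Copz2 (Pearson's r = 0.994), Socs5 (0.993), Jun (0.990), Rbpms (0.988) and Btbd11 (0.987). All 5 had lower means in NHD13, with log2 differences of -1.21, -0.62, -0.84, -1.62 and -1.12 in that order. When each genotype's own mean was subtracted, the nearest were Tmem59 (r = 0.999), Irf1 (0.998), Tmem229b (0.997), Epb41l2 (0.997) and Ifitm3 (0.996). That second measure rests mostly on the NHD13 pools, where Bcl2 varied. With 6 arrays and this many genes, some high values are found for any gene, so both lists are descriptions.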

How the data were processed

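RNA of 6 pools, 3 per genotype, was measured on bead arrays. Per the file headers, the deposited intensity of a probe is its mean over beads without background subtraction or normalization, given with bead counts, the bead standard error (a signal in intensity units) and a detection p-value. The deposited p-values step by 1 in 936. The authors' processed intensity values, background-subtracted and brought to a common distribution as their values show, served as an alternative. Scanner software is not given in the sources used here. Columns were matched by genotype and number.

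In R 4.3.3 with limma 3.58.1, neqc (offset 16, negative controls inferred from detection p-values) gave log2 values, and lmFit and eBayes tested each probe two-sided with Benjamini-Hochberg adjustment at 0.05. The test was checked on simulated data. A gene was read by its brightest tested probe. Symbols came from the platform annotation, and gene IDs of all 32 member probes were in the RefSeq table of GRCm38.p6.

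Both genotypes carry numbers 1 to 3 in the labels, which do not explain them. Deviations from group means correlated at 0.19, 0.67 and 0.54 between arrays of one number, over 0.1 in each pair, which was read as possible pairing. Different numbers reached 0.24, above the value for number 1, so pairing was not settled. The main tests took the arrays as unpaired, and the replicate block was an alternative. Nothing says that pools came from separate litters, so p-values measure the spread between these pools. The precision is limited by 3 arrays per genotype.

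Members, lists and tests were chosen with earlier results of these data known. All members were named. The other apoptosis lists gave called genes or the 3 of smallest p, and the marker lists gave counts, medians, sums and undetected genes. Foxo3, Foxo1 and every tested marker gene named were added after their values were seen. Alternatives tried were the authors' values, scaling to medians, omitted background correction, 2 detection filters, an intensity trend, array weights, an offset of 50, the block, averaged probes, and arrays left out. With an array left out the tested probes were kept as they were. That choice was made after seeing the counts, and re-applying the detection filter was added as a further alternative after seeing the data.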

Additional observations from a re-analysis of the deposited data

Results flagged for a closer look

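A signal outside the tested probes was seen for Bcl2l1, the gene of BCL-XL. Its probe ILMN_1255430 had a mean log2 value of 5.45 in NHD13 and 4.94 in wild type cells, with detection on 2 NHD13 arrays and 0 wild type arrays, so it failed the filter of 3 arrays. Its values were 5.42, 5.46 and 5.47 in NHD13 pools, against 4.77, 5.07 and 4.97 in wild type pools. When all probes were tested, its difference was 0.51 ± 0.12 (SE, n = 3 against 3, limma adjusted p = 0.437). It lies at the detection floor, and the tested Bcl2l1 probe differed by 0.0028. No group held enough arrays for a search for outlying samples.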

How the results depend on the processing

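The brightest Bcl2 probe lay below 0 in all 16 alternatives, between -2.17 and -1.30, and passed in 2 of them, with array weights (-1.86) and without NHD13 replicate 3. Leaving out single arrays gave between -2.17 and -1.40. The number of family probes called was 4 with array weights, 1 with the replicate block, between 0 and 2 with 1 array left out and 0 otherwise. The block changed no other call among the family's probes, and gave 79 probes and 56 genes over the whole array. Probes called over the whole array were 67, against 36 without background correction, 11 with detection on all 6 arrays, 579 with array weights, 21 without both arrays numbered 2, and between 1 and 88 with 1 array left out (20 without NHD13 replicate 1, and 1, 38 and 5 when wild type replicate 1, 2 or 3 was omitted). Genes called were 50, against 27, 31 with the authors' values, 6, 342 and 16, and between 1 and 61 with 1 array left out (16, 1, 24 and 4 without these same arrays). These counts kept the tested probes fixed. With the detection filter re-applied to the 5 arrays left, which was added after seeing the data, between 0 and 64 probes and between 0 and 44 genes were called, and Bcl2 again passed only without NHD13 replicate 3 (adjusted p = 0.035). Array weights also called 1 gene of the wider family list. The pro-apoptotic median was 0.30 without both arrays numbered 2 and between -0.12 and 0.22 with 1 array left out. The anti-apoptotic median stayed between -0.18 and -0.025.

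Signs turned for members near 0. Bcl2l1 measured -9.6e-06 without background correction, -0.11 with median scaling, -0.14 with array weights, -0.080 without both arrays numbered 2, and between -0.059 and 0.11 with 1 array left out. Bbc3 measured -0.077 with median scaling and with array weights, and between -0.19 and 0.22 with 1 array left out. The dimmer Bcl2l2 probe measured -0.085 with median scaling and between -0.0055 and 0.15 with 1 array left out. With 1 array left out, Mcl1 lay between -0.015 and 0.15 and Pmaip1 between -0.16 and 0.18. The cause was not tested. Signal near background limits Bcl2l1 and Pmaip1.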
